A study of Apis mellifera with 27 samples.

Results

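Long genes take up much of the honey bee genome, and they were examined here for where in them 4 histone marks were called in the adult brain. The genes were chosen by length alone, as the protein-coding genes on chromosomes 1 to 16 whose span, from annotated start to annotated end, is 100 kb or more in the RefSeq gene table of the assembly Amel_HAv3.1. This rule gave 369 of 9870 protein-coding genes, which is 3.74% of the genes but 78.1 Mb of the 221 Mb of chromosome sequence, or 35.4%. The 9501 shorter protein-coding genes served for comparison, with 82.4 Mb left after any sequence inside a long gene was set aside. In all, 124882 of the 436257 peaks on the chromosomes overlapped a long gene, and 201801 overlapped a shorter one.

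The peaks came from chromatin immunoprecipitation and sequencing of brains of drones, queens and workers of Apis mellifera, taken as newly emerged adults and with the optic lobes removed. Drones are the males, and queens and workers are the female castes. All were offspring of one mother queen, and each library was made from pooled brains. H3K27ac, H3K27me3, H3K4me1 and H3K4me3 were each measured in 2 libraries per caste, giving 24 peak lists, and input libraries were not analysed here. Because cell types were not separated, a mark carried by fewer cells cannot be told apart from less of the mark per cell. The labels do not say that the pools shared nothing else, so the p-values below measure the spread between these libraries only.

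In animals generally, H3K4me3 marks the starts of active genes, and H3K27ac marks active starts and active enhancers. H3K4me1 is found at enhancers whether active or poised, and H3K27me3 is laid down by Polycomb complexes over genes that are held silent. Long genes in animal genomes owe their length mostly to introns, and many of those used in neurons, such as receptors, channels and cell adhesion molecules, are long.

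The number of ChIP tags behind each list, estimated from the deposited fold and p-values, ran from 4.20 to 25.1 M (M for 1e6 tags), and the lists held between 3866 and 26256 peaks. All tag numbers below are such estimates. In each mark both drone libraries had fewer tags than all queen and worker libraries, by most in H3K4me3 with 4.20 to 5.21 M in drones against 13.6 to 19.5 M in queens and workers. For this reason long genes were set against shorter genes within each library first. As a check of the tissue, the neuronal genes Syt1, brp and Para had H3K27ac and H3K4me3 peaks in all 6 libraries of these marks and no H3K27me3 peak. Of the gland genes, Mrjp1 and Mrjp2 had no H3K27ac peak in any library. Mrjp1 had an H3K4me3 peak in 1 library, an H3K4me1 peak in 2 and an H3K27me3 peak in 1, and Mrjp2 had no peak of any mark. The neuronal markers elav and nSyb, and the markers of glia and muscle, were not matched by symbol.

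The long genes ran from 100.085 kb to 869.7 kb with a median of 174 kb, and 137 of them reached 200 kb and 71 reached 300 kb. The longest was LOC724287, on chromosome 11 from 5292072 to 6161805. Each chromosome held 12 to 48 of them. They listed a median of 5 transcripts per gene, against 1 in shorter genes and 3 in the 1075 genes of 20 to 100 kb. Within them lay 602 shorter genes of all kinds, of which 136 were protein-coding, 349 were long non-coding RNA genes and 62 were microRNA genes. Of their sequence, 10.0% was shared with another gene, where a peak cannot be given to one gene alone, and 16 long genes overlapped another long gene. Just under the length limit lay LOC411365, with 99.903 kb and a mean of 615 bp of H3K27ac per 10 kb, and just over it LOC412591, with 100.085 kb and 342 bp.

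H3K27ac and H3K4me3 were sparse in long genes. Cover is given here as the base pairs under peaks per 10 kb of gene sequence. For H3K27ac it was 372 and 322 bp in drone, 447 and 395 bp in queen and 443 and 428 bp in worker libraries over long genes, against 1012 and 984, 1267 and 988, and 1113 and 1036 bp over shorter genes in the same libraries. No value of long genes reached any value of shorter genes. The mean was 401 ± 48.3 bp in long genes and 1067 ± 109 bp in shorter genes (SD, n = 6), a log2 ratio of −1.41 ± 0.13, which is 2.67-fold lower. For H3K4me3, cover was 68.8 and 43.7 bp in drone, 105 and 128 bp in queen and 118 and 86.4 bp in worker libraries over long genes. Over shorter genes it was 279 and 189, 363 and 434, and 355 and 283 bp. The mean was 91.7 ± 31.8 bp against 317 ± 85.1 bp, a log2 ratio of −1.83 ± 0.20 and 3.55-fold lower. Both marks were lower in 6 of 6 libraries (adjusted p = 0.0312, two-sided exact permutation test by sign flips over the libraries, the smallest p that 6 libraries allow). They were also lower in long genes on 16 of 16 chromosomes, with log2 ratios from −2.97 to −0.43 for H3K27ac and from −2.65 to −1.48 for H3K4me3.

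H3K27me3 behaved otherwise. Its cover was 467 ± 21.1 bp per 10 kb in long genes and 433 ± 25.8 bp in shorter genes (SD, n = 6), a log2 ratio of 0.11 ± 0.04 and higher in 6 of 6 libraries (adjusted p = 0.0312, exact sign-flip permutation test). This small excess depended on what the long genes were set against. Against genes of 20 to 100 kb the log2 ratio was −0.33, and against all other sequence, genic or not, it was −0.54. The order also differed along the genome, with long genes higher on 9 chromosomes and lower on 7, between −1.23 and 1.72.

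H3K4me1 lay between these. It covered 271 ± 78.1 bp per 10 kb in long genes and 336 ± 104 bp in shorter genes (SD, n = 6), a log2 ratio of −0.30 ± 0.17 and lower in 6 of 6 libraries (adjusted p = 0.0312, exact sign-flip permutation test). Against all other sequence the log2 ratio was −0.071 and did not pass (adjusted p = 0.5). With each gene weighted equally it turned to 0.45 in favour of long genes. Worker libraries had the least H3K4me1 in both classes, with 174 and 178 bp in long genes against 193 and 221 bp in shorter genes.

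**Figure D1:**
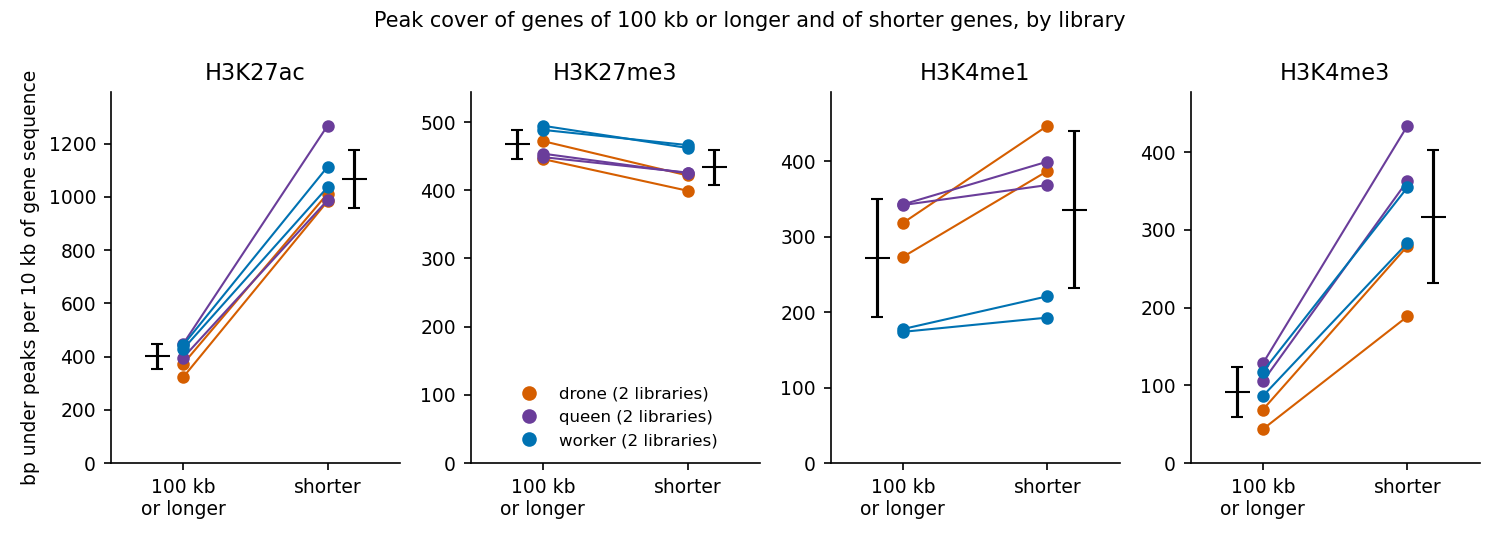
Base pairs under peaks per 10 kb of gene sequence, in genes of 100 kb or longer and in shorter protein-coding genes. A line joins the values of 1 library and black bars give the mean and SD of 6 libraries. H3K27ac and H3K4me3 lay lower in long genes in every library, H3K4me1 a little lower, and H3K27me3 slightly higher.

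Counting peaks in place of base pairs gave the same order. Long genes held 0.729 H3K27ac peaks per 10 kb against 1.77 in shorter genes (log2 ratio −1.29 ± 0.16), and 0.171 H3K4me3 peaks against 0.611 (−1.94 ± 0.39). For H3K4me1 the counts were 0.843 against 0.978 (−0.21 ± 0.17) and for H3K27me3 0.921 against 0.721 (0.35 ± 0.03). All 4 differences had the same sign in 6 of 6 libraries (adjusted p = 0.0312, exact sign-flip permutation test over 4 marks and 2 measures). The last pair turned with the comparison, H3K27me3 to −0.084 against genes of 20 to 100 kb and −0.31 against all other sequence, and H3K4me1 to 0.011 against all other sequence and 0.012 with a length limit of 50 kb. As a share of the peaks of a library, long genes took 35.6 ± 2.67% for H3K4me1, 30.7 ± 0.280% for H3K27me3, 24.1 ± 1.92% for H3K27ac and 18.0 ± 3.43% for H3K4me3, beside their 35.4% of the sequence.

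Cover changed with length in a different way for each mark. H3K4me3 fell steadily, with 421 bp per 10 kb in genes under 10 kb, 389 bp at 10 to 20 kb, 128 bp at 100 to 150 kb and 71.3 bp in genes of 300 kb or more. H3K27ac was highest in genes of 20 to 50 kb, at 1401 bp, and then declined to 718 bp at 100 to 150 kb, 393 bp at 150 to 200 kb and 251 bp at 300 kb or more. H3K4me1 had its highest value in the same class, 448 bp, and 219 bp in the longest. H3K27me3 was at 170.0 bp in genes under 10 kb. Its range at 50 to 100 kb, 629 to 698 bp, overlapped that of the class with the highest mean, 100 to 150 kb, with 716 bp (688 to 779 bp). Above that length its order broke, with 323 bp at 150 to 200 kb, 612 bp at 200 to 300 kb and 317 bp at 300 kb or more, and the ranges of the 6 libraries in these neighbouring classes did not overlap between 150 to 200 kb (277 to 374 bp) and 200 to 300 kb (569.9 to 658 bp). These classes hold 143, 89, 66 and 71 long genes, and whether a few heavily marked genes weigh on them was not tested.

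**Figure D2:**
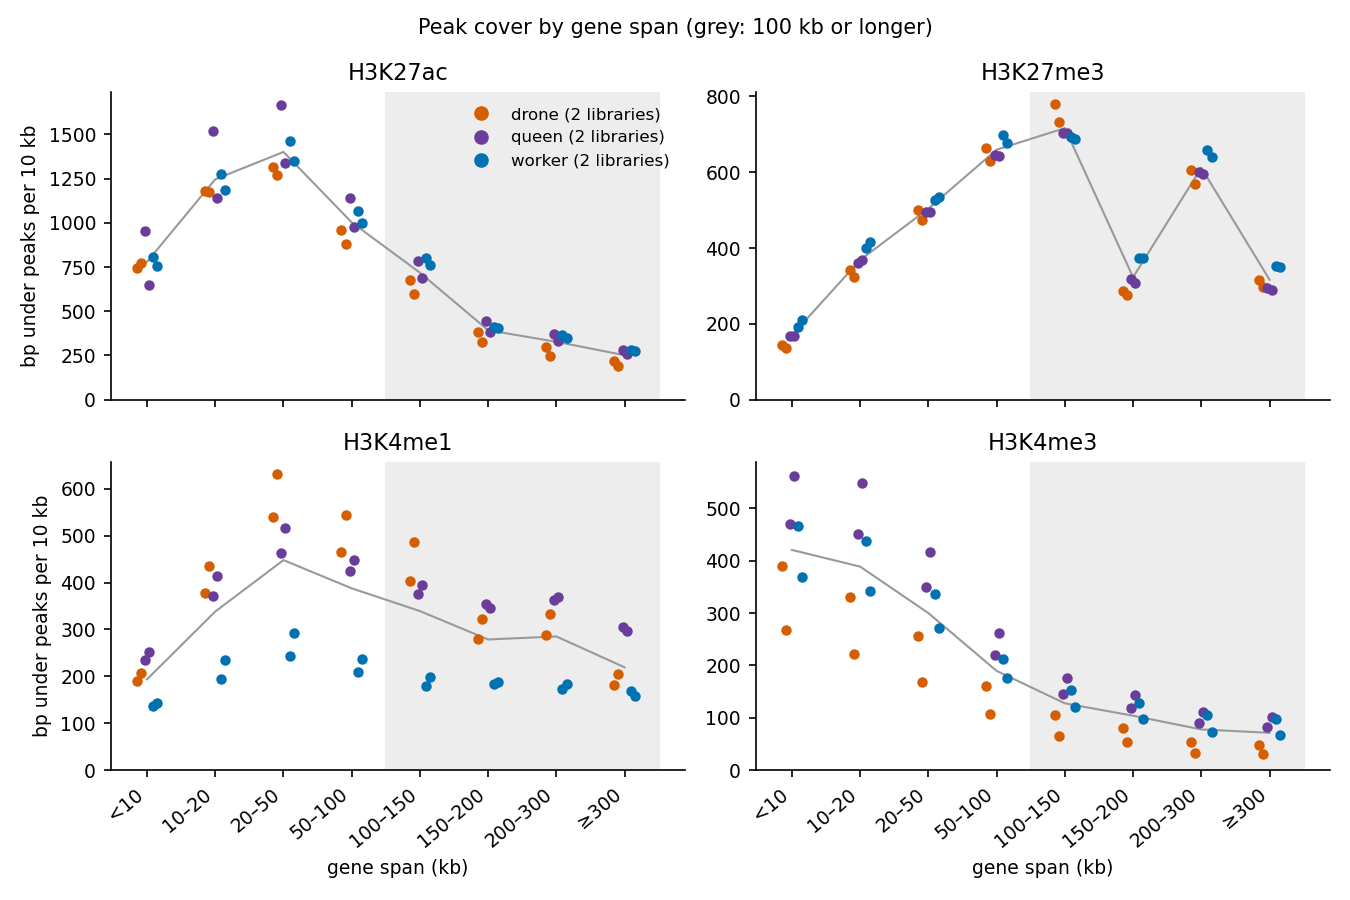
Base pairs under peaks per 10 kb by class of gene span in kb, with 1 point per library and a line through the class means. H3K27ac and H3K4me3 declined above 50 kb. H3K27me3 had its highest class mean at 100 to 150 kb, 716 bp, with a range that overlapped the class of 50 to 100 kb.

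In long genes H3K4me3 and H3K27ac were gathered at the ends. The gene table gives no strand, so an end is either the start or the end of transcription. In the outermost 1 kb at each end, cover was 2132 ± 310 bp per 10 kb for H3K4me3 and 2225 ± 195 bp for H3K27ac (SD, n = 6). At 5 to 7.5 kb inside it was down to 51.1 ± 29.7 bp and 437 ± 74.7 bp. Further inside, both stayed near those levels, with 66.0 bp and 472 bp at 10 to 15 kb. H3K27me3 was lowest in the outermost 1 kb, at 429 ± 18.3 bp, and reached 563 ± 22.8 bp at 7.5 to 10 kb. H3K4me1 likewise had 211 ± 69.4 bp in the outermost 1 kb and 326 ± 97.7 bp at 7.5 to 10 kb.

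Taking the outer 5 kb at each side as ends, the interior of long genes had 61.0 bp of H3K4me3 per 10 kb against 710 bp at the ends, a log2 ratio of −3.65 ± 0.43, and 365 bp of H3K27ac against 1131 bp, a log2 ratio of −1.63 ± 0.06. H3K27me3 had 466 bp in interiors against 499 bp at ends (−0.10 ± 0.04). Each was lower in interiors in 6 of 6 libraries (adjusted p = 0.0417, exact sign-flip permutation test). H3K4me1 had 271 bp against 282 bp (−0.05 ± 0.10) and did not pass (adjusted p = 0.281, lower in 5 of 6 libraries). Each gene gives the ends the same length, while longer genes weigh more in the interiors. In bands from 5 to 50 kb inside, where genes weigh alike, mean H3K27me3 ran from 514 to 563 bp, above its 499 bp at the ends. Its lower interior value is thus one of pooled sequence, not of position within genes, and its cause was not tested. With ends of 2 kb the ratios were −4.72 for H3K4me3 and −2.27 for H3K27ac, both larger in size than with 5 kb. Each still had the smallest p that 6 libraries allow, 0.03125 by the same exact permutation test. Adjusted over the 4 marks, both were at 0.0625, because the other marks did not pass. H3K27me3 was at −0.012 (adjusted p = 0.5 by the same test) and H3K4me1 at 0.11.

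Since a long gene has little end and much interior, interiors were also compared with interiors. Long genes had lower interior cover than genes of 20 to 100 kb for all 4 marks, in 6 of 6 libraries each (adjusted p = 0.0312, exact sign-flip permutation test). H3K27ac had 365 bp per 10 kb in long interiors against 1100 bp (log2 ratio −1.60 ± 0.10), H3K4me3 61.0 bp against 127 bp (−1.10 ± 0.18), H3K4me1 271 bp against 430 bp (−0.64 ± 0.24) and H3K27me3 466 bp against 595 bp (−0.36 ± 0.02). The ends differed less. H3K4me3 at the ends of long genes was higher than at the ends of genes of 20 to 100 kb, with 710 bp against 631 bp (0.17 ± 0.06, 6 of 6 libraries, adjusted p = 0.0312 by the same exact permutation test). H3K27ac at the ends was lower, with 1131 bp against 1515 bp (−0.43 ± 0.09, 6 of 6 libraries), but with ends of 2 kb this was −0.10 and did not pass (adjusted p = 0.125, exact permutation test).

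**Figure D3:**
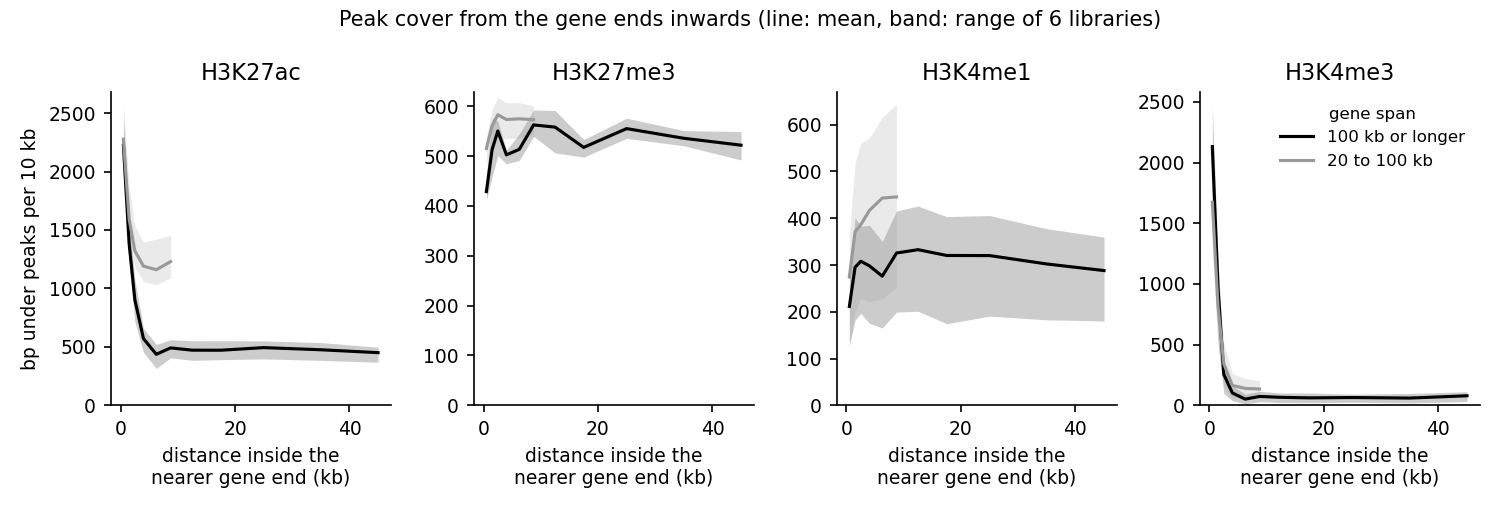
Base pairs under peaks per 10 kb by distance inside the nearer end of the gene, for genes of 100 kb or longer (black) and of 20 to 100 kb (grey), as the mean and range of 6 libraries. At 5 to 7.5 kb inside, H3K27ac was at 437 bp in long genes against 1160 bp in genes of 20 to 100 kb, while H3K4me3 was low in both.

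Peaks inside long genes were weaker, and smaller shares of the H3K4me1 and H3K4me3 cover lay under H3K27ac. The median fold enrichment of a peak, as the caller gave it, was 2.90 for H3K27ac in long genes against 4.04 in shorter genes, and 2.83 for H3K4me3 against 4.22. It was 2.43 against 2.65 for H3K27me3 and 2.15 against 2.33 for H3K4me1. All 4 were lower in 6 of 6 libraries (adjusted p = 0.0357, exact sign-flip permutation test). Of the H3K4me1 base pairs in long genes, 28.7 ± 2.86% also lay under an H3K27ac peak of the same caste and replicate number, against 56.0 ± 2.09% in shorter genes (SD, n = 6). Of the H3K4me3 base pairs, 68.0 ± 7.99% lay under H3K27ac in long genes against 85.1 ± 5.34%. H3K27ac itself covered less of the long genes, and the shares were not adjusted for this. Overlap of H3K4me1 with H3K27me3 went the other way, at 22.1 ± 2.51% in long genes against 16.3 ± 1.30%. Each of these 3 shares kept its direction in 6 of 6 libraries (adjusted p = 0.0312, exact sign-flip permutation test).

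Peaks in long genes also recurred less between replicates. For H3K4me3, 67.3 ± 16.3% of peaks in long genes overlapped a peak of the other replicate, against 81.1 ± 12.5% in shorter genes, for H3K4me1 56.5 ± 8.92% against 63.5 ± 8.97%, and for H3K27me3 76.2 ± 3.12% against 82.2 ± 2.86% (each lower in 6 of 6 libraries, adjusted p = 0.0417, exact sign-flip permutation test). For H3K27ac the shares were 81.6 ± 5.78% and 86.7 ± 4.16%, lower in 4 of 6 libraries (adjusted p = 0.125). When the peaks of the 6 libraries of a mark were merged, long genes held 9208 regions of H3K27ac, of which 25.4% were found in all 6 libraries, against 41.9% of 18987 regions in shorter genes. For H3K4me3 these shares were 11.5% of 3474 against 28.2% of 8702, for H3K27me3 21.9% of 12932 against 31.3% of 8814, and for H3K4me1 2.78% of 18301 against 6.71% of 18826. The widest H3K27ac region seen in all 6 libraries spanned 10621 bp in LOC410925 (chromosome 3, 11593506 to 11604126). The widest such H3K27me3 region spanned 10130 bp in LOC100577759 (chromosome 10, 7900494 to 7910623).

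Most of the sequence of long genes had no call. No mark was called in any library over 81.1% of it, against 75.5% in shorter genes and 70.9% in genes of 20 to 100 kb. The longest stretch of a long gene without any peak had a median of 12.9 kb, and 91 genes held one of 20 kb or more and 19 one of 50 kb or more. The longest measured 183239 bp, in LOC100576498 (chromosome 4, 939451 to 1122689). LOC727444 (chromosome 13, 1942755 to 2067717) was the only long gene without a peak of any mark in any of the 24 libraries. Absence of a call is not absence of the mark, which peak lists cannot show.

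Few long genes lacked H3K4me1, H3K4me3 or H3K27ac altogether. H3K4me1 was called somewhere in 335 of the 369 genes (90.8%) in all 6 libraries, H3K27ac in 306 (82.9%), H3K4me3 in 278 (75.3%) and H3K27me3 in 192 (52.0%). No peak in any library was found in 2 genes for H3K4me1, 7 for H3K4me3, 13 for H3K27ac and 66 for H3K27me3. LOC409787 joined LOC727444 in having no H3K4me1. In genes of 20 to 100 kb, peaks in all 6 libraries were found in 70.6% for H3K4me1, 74.8% for H3K27ac, 58.9% for H3K4me3 and 26.6% for H3K27me3, with less sequence per gene to hold one.

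The long genes differed widely among themselves. The median gene had 190 bp of H3K27ac per 10 kb and the highest 5808 bp. For H3K27me3 the median was 53.5 bp and the highest 6987 bp, for H3K4me1 247 and 1927 bp, and for H3K4me3 85.5 and 485 bp. H3K27ac exceeded H3K27me3 in all 6 pairs of libraries in 184 genes (49.9%), H3K27me3 exceeded H3K27ac in all 6 in 100 genes (27.1%), and 85 genes were mixed. In genes of 20 to 100 kb these shares were 63.2% and 15.6%. Across the 369 genes, whose values come from the same libraries, Spearman's rho was 0.74 between H3K27ac and H3K4me3, 0.47 between H3K27ac and H3K4me1, −0.33 between H3K27ac and H3K27me3 and 0.09 between H3K27me3 and H3K4me1. With span it was −0.27 for H3K4me3, −0.21 for H3K27ac, −0.17 for H3K4me1 and 0.05 for H3K27me3.

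H3K27ac was highest in LOC726461 (chromosome 2, 14859252 to 14961319), which had 5844 and 5309 bp per 10 kb in drone, 5659 and 5818 bp in queen and 6236 and 5983 bp in worker libraries, and no H3K27me3 in any. The castes overlapped there. After it came LOC408725, LOC408770, LOC408944 and LOC408271, with means from 4301 to 3660 bp, and LOC408271 also had the highest H3K4me3, at 485 ± 145 bp. H3K27me3 was highest in LOC727092 (chromosome 4, 3884822 to 3995495), with 6911 and 6512 bp in drone, 6721 and 6863 bp in queen and 7266 and 7652 bp in worker libraries. Next were Ubx, LOC100577759, LOC726180 and Antp. Of the 10 longest genes, LOC725329 had the most H3K27ac, at 1154 bp, and LOC724287 the least. LOC724287, the longest of all, had 42.4 ± 30.2 bp of H3K4me3, 59.7 ± 23.9 bp of H3K27ac, 8.95 ± 10.8 bp of H3K27me3 and 132 ± 40.8 bp of H3K4me1 per 10 kb (SD, n = 6).

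**Figure D4:**
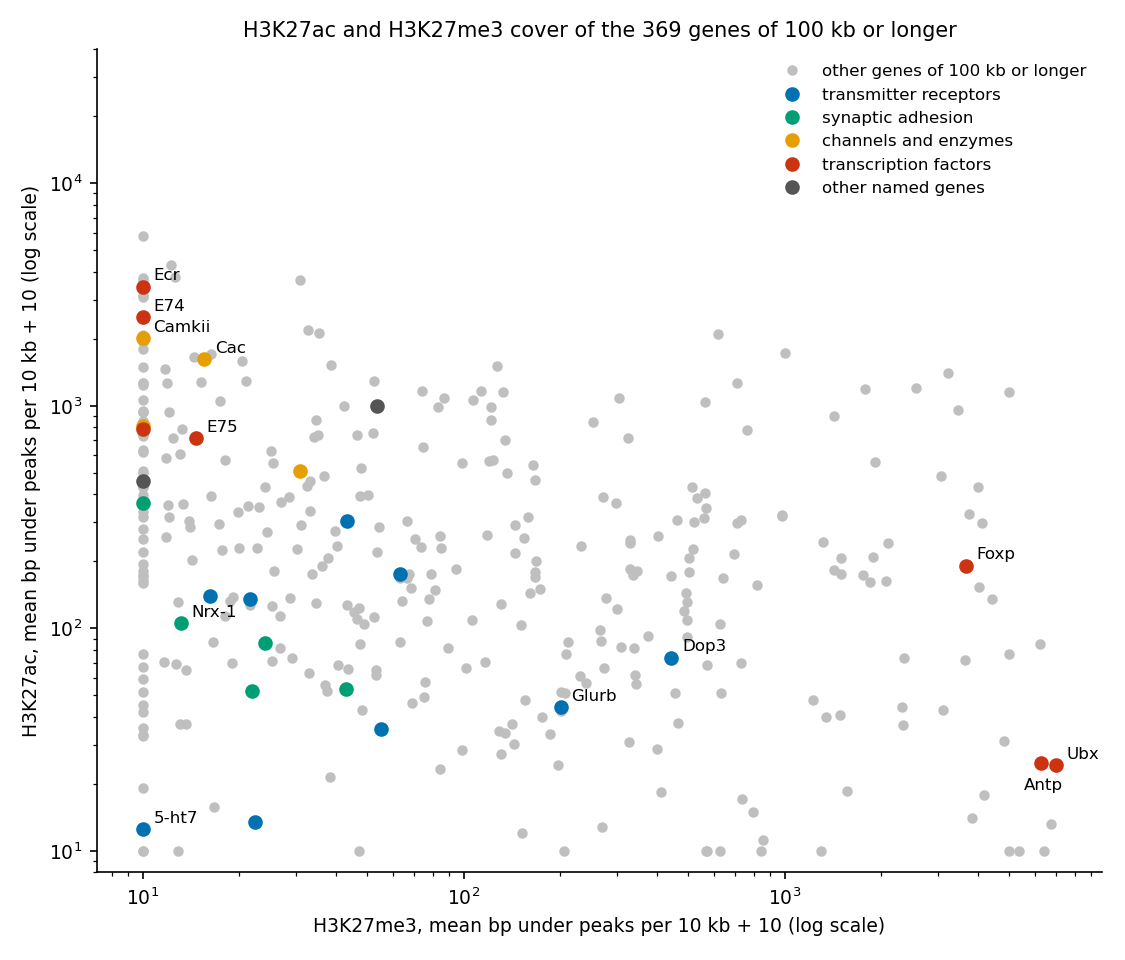
Mean H3K27ac against mean H3K27me3 cover, in bp per 10 kb plus 10 on log scales, with 1 point for each of the 369 genes of 100 kb or longer and colours for the 27 genes that carry a symbol. Ubx, Antp and Foxp sit at high H3K27me3, Ecr, E74, Camkii and Cac at high H3K27ac, and most transmitter receptors low in H3K27ac.

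Of the 369 genes, 27 carry a symbol in the gene table, and they were grouped by the role their names give. Among the transcription factors, H3K27me3 lay over the Hox genes. Ubx and Antp, which set the identity of trunk segments in Drosophila, lie on chromosome 16 at 3674143 to 3820751 and at 3881429 to 4037081. Ubx had 6809 and 6560 bp of H3K27me3 per 10 kb in drone, 6963 and 7041 bp in queen and 7047 and 7378 bp in worker libraries. Antp had 6212 and 5809 bp in drone, 6219 and 6308 bp in queen and 6318 and 6714 bp in worker libraries. Their H3K27ac averaged 14.3 and 14.9 bp. Foxp, a forkhead factor on chromosome 13 (5292251 to 5526825), had a mean of 3662 ± 509 bp of H3K27me3 (SD, n = 6) and 181 ± 37.5 bp of H3K27ac.

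The genes of the ecdysone response stood at the opposite end. Ecr encodes the ecdysone receptor, and E74 and E75 are factors that ecdysone induces in Drosophila. Ecr (chromosome 8, 9626947 to 9747799) had 3420 ± 257 bp of H3K27ac per 10 kb (SD, n = 6), E74 (chromosome 3, 3327213 to 3476366) 2486 ± 209 bp and E75 (chromosome 11, 10210607 to 10372038) 705 ± 365 bp. Ecr and E74 had no H3K27me3 peak in any library, and E75 had one library with 27.7 bp. Mad, which carries BMP signals to the nucleus, had 779 ± 207 bp of H3K27ac and no H3K27me3.

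Channels and enzymes were all above the median long gene in H3K27ac and in H3K4me3, 4 of 4 in each. Camkii, a calcium-dependent kinase used in synaptic plasticity, averaged 1997 ± 635 bp of H3K27ac per 10 kb (SD, n = 6), and Cac, a voltage-gated calcium channel of nerve terminals, 1605 ± 382 bp. AChE-2, an acetylcholinesterase, had 805 ± 274 bp, and Amih, a hyperpolarization-activated channel, 501 ± 70.6 bp. Their H3K27me3 was between 0 and 20.8 bp. Nedd9 and osp, given no role here, had 989 and 450 bp of H3K27ac.

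Transmitter receptor genes were mostly below the median long gene, with 1 of 9 above it in H3K27ac and in H3K4me1 and 2 of 9 in H3K27me3 and in H3K4me3. Of the 9 receptor genes only nAChRa1 was above the median long gene in H3K27ac, with 293 ± 185 bp per 10 kb (SD, n = 6), and the median over the group was 63.8 bp beside 190 bp over all long genes. The serotonin receptor genes ran from 2.55 bp in 5-ht7 and 3.54 bp in 5-HT2beta to 165 bp in 5-HT1. The nicotinic acetylcholine receptor genes nAChRa6, nAChRa7 and nAChRa4 had 25.1, 126 and 130 bp. The dopamine receptor gene Dop3 and the glutamate receptor gene Glurb were the 2 receptor genes above the median in H3K27me3, with 433 ± 183 bp and 190 ± 131 bp. Of the synaptic adhesion genes, 1 of 5 was above the median in H3K27ac. That gene was Abscam, an immunoglobulin-type adhesion molecule, with 357 ± 149 bp. Nrx-1, the presynaptic neurexin, had 95.5 bp, and its partners the neuroligins NLG-3, NLG-4 and NLG-5 had 76.3, 42.2 and 43.5 bp. Several of these genes have very long spans, and values per 10 kb dilute a marked end over the whole gene.

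Whether the castes differed in how a mark was split between long and shorter genes could not reach 0.05, since 6 libraries pair in only 15 ways and the smallest p is 0.0667. The log2 ratio of H3K4me3 cover was −2.07 ± 0.06 in drones, −1.77 ± 0.02 in queens and −1.65 ± 0.09 in workers (SD, n = 2 each, exact permutation p = 0.0667, adjusted p = 0.178). For H3K4me1 it was −0.50 ± 0.01, −0.16 ± 0.08 and −0.23 ± 0.12 (exact permutation p = 0.133, adjusted p = 0.178). For H3K27ac it was −1.53 ± 0.12, −1.41 ± 0.13 and −1.30 ± 0.04 (p = 0.333 by the exact permutation test), and for H3K27me3 0.16 ± 0.00, 0.08 ± 0.01 and 0.08 ± 0.02 (p = 0.2 by the exact permutation test). The drone libraries also had the fewest tags. With an equal number of peaks taken per library, the drone value of H3K4me3 differed from the mean of queen and worker by −0.0144, beside −0.35 with all peaks. The same step gave −0.41 beside −0.30 for H3K4me1 and −0.096 beside −0.17 for H3K27ac.

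Single genes were then compared between castes with limma on log2(covered bp per 10 kb + 100), over all protein-coding genes covered in at least 2 of the 6 libraries of a mark, and a gene was called at an adjusted p under 0.05. Fold changes on this scale understate those of thinly covered genes. The 3 contrasts share libraries, so their gene lists are not independent. The counts below include genes that passed this filter through a single caste, the one where they were high.

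For H3K27ac, 15 of 352 long genes differed between drones and queens, 3 higher and 12 lower in drones, beside 4.96% of all 4920 genes tested (2.22% higher, 2.74% lower). Between drones and workers 29 long genes differed, 2 higher and 27 lower in drones (6.50% of all genes, 2.89% higher and 3.62% lower). Between queens and workers 3 did, 1 higher and 2 lower in queens (3.25% of all genes, 1.91% higher and 1.34% lower). Of these, LOC408884 was covered in queens alone and LOC100578314 in workers alone. Each entered the test only through the group where it was high, so its calls here and in the drone contrasts add no support. With cover scaled to equal totals, which moved the median of all genes to 0.09 for drones minus queens and to 0.08 for drones minus workers, 9 long genes were higher and 44 lower in drones than in workers. The median difference over long genes was −0.24 for drones minus queens, −0.30 for drones minus workers and −0.06 for queens minus workers, beside −0.08, −0.05 and 0.01 over all genes. Drone libraries had 8.76 to 10.8 M tags against 14.2 to 21.1 M in the others, and the medians were recomputed with thinned peaks and with equal peak numbers. Thinned lists gave 14, 21 and 2 long genes with medians of −0.16, −0.13 and 0.04, and equal peaks gave 4, 16 and 0 with medians of −0.14, −0.20 and −0.10. With equal peaks the split between drones and queens was 3 higher and 1 lower. No long gene was called in either drone contrast when drone replicate 1 or 2 or worker replicate 1 or 2 was left out. Without queen replicate 1 or 2 there were 10 and 17 for drones minus queens and 61 and 50 for drones minus workers, and 2 and 1 for queens minus workers, which had 0 without any of the other libraries.

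Synaptic genes were among those with less H3K27ac in drones. Of the 8 receptor genes tested 4 were called lower in drones than in workers, and of the 5 adhesion genes 2 were, while none of either group was higher, beside 27 of all 352 long genes and 3.62% of all genes called lower. Of the 7 alternatives other than the block and left-out libraries, nAChRa6 was called in 3 and NLG-5 in 4, and each of these 6 genes was called in 2 of 6 fits with a library left out. The neurexin gene Nrx-1 had no H3K27ac peak in either drone library, against 110 and 89.1 bp per 10 kb in queen and 187 and 186 bp in worker libraries. All 3 castes were separate (log2 difference −1.52 ± 0.14 for drones minus workers, SE, limma adjusted p = 0.00776). Dop3 had none in drones, against 58.4 and 46.1 bp in queens and 135 and 144 bp in workers (−1.26 ± 0.12, limma adjusted p = 0.00973). nAChRa4 had 20.6 and 23.2 bp in drones, against 159 and 165 bp in queens and 198 and 216 bp in workers (−1.33 ± 0.14 for drones minus workers, limma adjusted p = 0.0134). 5-HT1 had 0 and 20.2 bp in drones, against 171 and 206 bp in queens and 310 and 283 bp in workers (−1.85 ± 0.18, limma adjusted p = 0.0104). Without drone or worker replicate 1 or 2 in turn the calls against workers of these 4 genes were lost (limma adjusted p of 0.0802 to 0.126 in Nrx-1).

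Genes known by identifier only led the same contrast. LOC410006 had 13.8 and 13.6 bp of H3K27ac per 10 kb in drones, against 183 and 155 bp in queens and 324 and 305 bp in workers (−1.86 ± 0.16 for drones minus workers, limma adjusted p = 0.00637), but the call was lost with thinned peaks (limma adjusted p = 0.0602), with equal peaks (0.148), under a stricter −log10 q limit of 5 (0.0586) and without drone or worker replicate 1 or 2. LOC410353, the ninth longest gene, had 9.14 and 3.67 bp in drones and 33.2 and 59.7 bp in queens, against 291 and 273 bp in workers (−1.84 ± 0.16, limma adjusted p = 0.00683, lost without drone or worker replicate 1 or 2). Against this direction, E75 had 1245 and 1065 bp in drones, above 340 and 425 bp in queens and 580.0 and 575 bp in workers (1.38 ± 0.20 for drones minus queens, limma adjusted p = 0.0381, lost without drone or worker replicate 1 or 2).

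For H3K27me3, 39 of 285 long genes differed between drones and queens, 19 higher and 20 lower in drones (14.6% of all 1491 genes tested, 4.56% higher and 10.1% lower). Between drones and workers 100 differed, 36 higher and 64 lower in drones (34.0% of all genes, 9.26% higher and 24.7% lower). Between queens and workers 9 did, 5 higher and 4 lower in queens (7.51% of all genes, 3.22% higher and 4.29% lower), or 8 higher and 3 lower once scaled. With thinned peaks the drone and worker split was 45 higher and 35 lower, and the drone and queen split 23 higher and 12 lower. Drone libraries had 8.69 to 9.95 M tags against 13.7 to 15.9 M. Leaving out a library gave 1 to 5 genes for drones minus queens when it was a drone or queen library, and 42 and 45 when it was a worker one. For drones minus workers it gave 28 and 21 without drone replicate 1 and 2, 57 and 58 without queen replicate 1 and 2, and 50 without worker replicate 2. For queens minus workers none was called without queen replicate 1 or 2, 1 without worker replicate 2 and 3 without drone replicate 1 or 2.

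Some long genes had most of their H3K27me3 in drones. LOC411212 (chromosome 7, 11685736 to 11807792) had 422 and 443 bp per 10 kb in drones and no peak in the 4 queen and worker libraries (log2 difference 2.41 ± 0.11 for drones minus queens, SE). It entered the test through its drone libraries alone, the group where it was high, so its limma call adds no support. LOC408890 (chromosome 6, 8136013 to 8257396) had 1040 and 903 bp in drones, against 147 and 202 bp in queens and 39.8 and 32.8 bp in workers (2.97 ± 0.25 for drones minus workers, limma adjusted p = 0.00295). LOC408670 (chromosome 2, 13122104 to 13238645) had 514 and 513 bp in drones, against 69.7 and 19.7 bp in queens and 24.0 and 0 bp in workers (2.46 ± 0.25 for drones minus workers, limma adjusted p = 0.0051). With a library left out, the difference for drones minus workers ran from 2.88 to 3.06 in LOC408890 and from 2.31 to 2.62 in LOC408670.

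Drones were lowest in LOC413289 (chromosome 3, 10834908 to 11049222), with 270 and 181 bp of H3K27me3 per 10 kb in drones, against 1681 and 1780 bp in queens and 2752 and 2258 bp in workers (−3.01 ± 0.22 for drones minus workers, limma adjusted p = 0.00247, held in 6 of 6 fits with a library left out). LOC413503 (chromosome 3, 12826356 to 13064149) was low in workers only, with 3677 and 3188 bp in drones and 4084 and 4283 bp in queens, against 1968 and 2104 bp in workers (1.00 ± 0.10 for queens minus workers, limma adjusted p = 0.00815, lost without queen replicate 1 or 2 or worker replicate 2). Among the genes with a symbol, 5-HT1 had 174 and 105 bp in drones, against 0 and 18.5 bp in queens and 20.7 and 0 bp in workers (1.11 ± 0.21 for drones minus workers, limma adjusted p = 0.0227, lost without drone replicate 1 or worker replicate 2).

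H3K4me1 differed at the largest number of long genes. Between drones and queens 111 of 366 differed, 27 higher and 84 lower in drones (18.7% of all 3632 genes tested, 6.55% higher and 12.2% lower). The lean towards lower was not kept with thinned peaks, with 45 higher and 44 lower, nor with equal peaks, with 40 higher and 51 lower. Between drones and workers 115 did, 89 higher and 26 lower in drones (22.4% of all genes, 16.9% higher and 5.56% lower). Between queens and workers 21 did, all higher in queens (11.3% of all genes, 10.5% higher and 0.798% lower). Worker libraries covered less in total, with 3660739 and 4026175 bp, against 6849371 and 8051678 bp in drones and 7230129 and 7522372 bp in queens. With cover scaled to equal totals, which moved the median of all genes for drones minus workers to −0.28, from 0.26 unscaled, the split was 47 higher and 79 lower, and 1 long gene was called between queens and workers. With equal peaks the drone and worker split was 45 higher and 36 lower. Between drones and queens 6 and 8 genes were called without queen replicate 1 and 2, and 21 and 20 without drone replicate 1 and 2. Between drones and workers 26 and 14 were called without drone replicate 1 and 2, 74 and 69 without queen replicate 1 and 2, and 58 without worker replicate 1. Between queens and workers 0 were called without queen replicate 1 or 2, 4 without drone replicate 1 or 2, and 5 without worker replicate 1.

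H3K4me1 was called higher in drones at most transcription factors with a symbol. Of the 7 transcription factors 6 were called higher in drones than in workers, and 2 higher in drones than in queens, with none lower, beside 16.9% and 6.55% of all genes called higher in these contrasts. Of the 2 calls against queens, E74 held in 0 of 6 fits with a library left out, and E75 in 2 of 6 and in 5 of 7 other alternatives. Ubx had 3440 and 4163 bp per 10 kb in drones, against 1523 and 1700 bp in queens and 183 and 551 bp in workers (log2 difference 3.18 ± 0.44 for drones minus workers, SE, limma adjusted p = 0.0137). Antp had 2242 and 3012 bp in drones, against 1006 and 1105 bp in queens and 309 and 508 bp in workers (2.44 ± 0.28, limma adjusted p = 0.0081). E74 had 1071 and 1561 bp in drones, against 392 and 531 bp in queens and 220 and 232 bp in workers (2.10 ± 0.26, limma adjusted p = 0.00995). In all 3 genes the castes did not overlap. Foxp was called too, with 220 and 255 bp in drones, 54.4 and 105 bp in queens and 8.36 and 17.5 bp in workers (1.58 ± 0.21, limma adjusted p = 0.0115). These 4 calls held in 7 of 7 alternatives other than the block and left-out libraries. They were lost without drone replicate 2 (limma adjusted p of 0.0545 in E74 to 0.094 in Ubx), and those of Ubx and Foxp also without drone replicate 1. E75 and Ecr, also called, were not past the threshold once cover was scaled (adjusted p = 0.0767 and 0.19).

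At the receptor genes the H3K4me1 calls ran the other way, a difference between the gene groups that was not tested. Of 9 receptor genes 6 were called lower in drones than in queens and 3 lower than in workers, along with 3 of 5 adhesion genes against queens, and none of either group was called higher than in queens. Of all genes 12.2% were called lower in drones than in queens and 5.56% lower than in workers. Among the calls against queens, Dop3 and NLG-4 held in 2 of 7 alternatives and in 0 of 6 fits with a library left out, and 5-HT2beta held in 4 of 7 and 2 of 6. Glurb had 34.3 and 58.9 bp of H3K4me1 per 10 kb in drones, against 517 and 456 bp in queens and 270.0 and 283 bp in workers (−2.0 ± 0.19 for drones minus queens, SE, limma adjusted p = 0.00468, 0.0501 without queen replicate 1). nAChRa7 had 50.3 and 9.83 bp in drones, against 360 and 391 bp in queens and 209 and 176 bp in workers (−1.89 ± 0.23, limma adjusted p = 0.00993, lost without queen replicate 1 or 2). AChE-2, which breaks down the transmitter of the nicotinic receptors, had 37.4 and 18.6 bp in drones, against 335 and 311 bp in queens and 160 and 192 bp in workers (−1.73 ± 0.18, limma adjusted p = 0.00648, lost without queen replicate 1 or 2). Drone H3K4me1 libraries had 13.1 to 13.6 M tags against 15.7 to 25.1 M. With thinned peaks these 3 calls held.

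**Figure D5:**
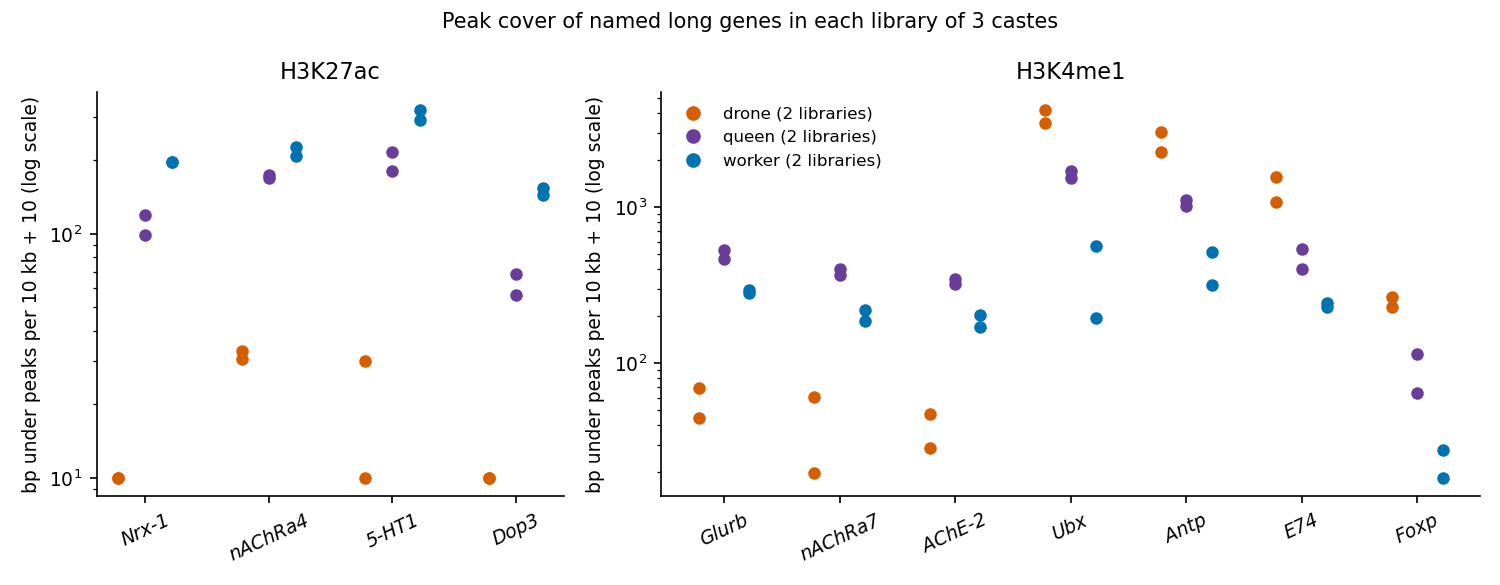
Cover of named long genes in bp per 10 kb plus 10 on a log scale, with 1 point per library, for H3K27ac (left) and H3K4me1 (right) in drones, queens and workers. Drones were lowest at Nrx-1, nAChRa4, 5-HT1 and Dop3 in H3K27ac and at Glurb, nAChRa7 and AChE-2 in H3K4me1, and highest in H3K4me1 at Ubx, Antp, E74 and Foxp.

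H3K4me1 also differed at genes known by identifier only. LOC726544 (chromosome 1, 134890 to 241308) had 2383 and 3231 bp per 10 kb in drones, against 926 and 1164 bp in queens and 207 and 231 bp in workers (3.18 ± 0.22 for drones minus workers, limma adjusted p = 0.00253). LOC726842 (chromosome 7, 1069275 to 1182474) had 1508 and 1976 bp in drones, against 467 and 461 bp in queens and 114 and 135 bp in workers (3.03 ± 0.20, limma adjusted p = 0.00225). Both calls held in 6 of 6 fits with a library left out. LOC411009 (chromosome 4, 11295002 to 11429683) had 255 and 367 bp in drones and no peak in queens or workers (2.03 ± 0.18 for drones minus queens). It entered the test through its drone libraries alone, the group where it was high, so its limma call adds no support. That call was also lost under the stricter q (limma adjusted p = 0.0821) and without queen replicate 1 or 2. LOC551170 (chromosome 3, 6140520 to 6248769) was high in queens, with 47.0 and 38.7 bp in drones, against 525 and 524 bp in queens, and 102 and 117 bp in workers (−2.13 ± 0.16 for drones minus queens, limma adjusted p = 0.00266).

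For H3K4me3, 16 of 359 long genes differed between drones and queens, 1 higher and 15 lower in drones (12.4% of all 4267 genes tested, 0.422% higher and 12% lower). Between drones and workers 3 did, 1 higher and 2 lower in drones (5.79% of all genes, 0.656% higher and 5.13% lower), or 1 higher and 13 lower once scaled. None was called between queens and workers by limma (4.71% of all genes, 3.94% higher and 0.773% lower), where 10 long genes had an unadjusted p under 0.05. Drone libraries held 4.20 to 5.21 M tags, and the median difference over all genes was −0.57 for drones minus queens. After scaling that median was 0.02, and the split was 1 higher and 11 lower. With equal numbers of peaks it was 8 higher and 11 lower. For drones minus queens 31 genes were called without drone replicate 1, 2 without drone replicate 2, and 1 and 0 without queen replicate 1 and 2. For drones minus workers 9 were called without drone replicate 1, 1 without drone replicate 2, and 0 without queen replicate 1 or 2 or worker replicate 1.

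LOC551597 (chromosome 3, 10305789 to 10419816) had no H3K4me3 peak in drones, against 219 and 255 bp per 10 kb in queens and 215 and 154 bp in workers (log2 difference −1.75 ± 0.17 for drones minus queens, SE, limma adjusted p = 0.00701, lost without drone replicate 2 or queen replicate 1 or 2). Dop3 had 13.3 and 0 bp in drones, against 112 and 126 bp in queens and 111 and 96.5 bp in workers (−1.04 ± 0.13 for drones minus queens, limma adjusted p = 0.0145, but 0.231 with thinned peaks, and lost without drone replicate 2 or queen replicate 1 or 2). The one gene higher in drones was LOC727092, the gene with the most H3K27me3, which had 164 and 105 bp of H3K4me3 in drones, against 20.8 and 23.0 bp in queens and 0 bp in both worker libraries (0.93 ± 0.15, limma adjusted p = 0.0341, lost without either queen or worker library).

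Regions seen in both libraries of 1 caste and in none of the other 4 libraries were a small share of the merged regions. For H3K27ac in long genes there were 267 such regions in drones (2.90%), 348 in queens (3.78%) and 494 in workers (5.36%), against 2.46%, 3.20% and 2.43% in shorter genes. For H3K4me1 there were 1440 in drones (7.87%), 1327 in queens (7.25%) and 235 in workers (1.28%), against 9.30%, 5.24% and 0.829%. For H3K27me3 they made up 4.72%, 2.17% and 3.21% in long genes, against 4.03%, 2.01% and 3.28%, and for H3K4me3 0.403%, 6.71% and 3.54%, against 0.471%, 7.72% and 1.45%. Differences between these shares were not tested.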

How the data were processed

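The authors mapped reads with BWA (version 0.7.17) to Amel_HAv3.1 and called peaks in each library with MACS2. Each deposited list gives a peak's position, its fold enrichment (a linear ratio over local background), the −log10 of its p and q values, and a score, which was not used. The control used for each library was not given in the sources used here. The lowest −log10 q was 2.00 to 2.02 in all 24 lists. From the deposited fold and −log10 p the pileup and background at each summit were solved for (whole pileups at 99.5% to 100% of peaks, checked on simulated lists). ChIP tags per library were then estimated as the lowest background times a genome size of 270000000 bp, over the width of the shortest peak. This takes the shortest peak as the fragment length, which was not checked. These tags are an estimate of the ones the caller kept, which set the depth and so the number of weak peaks, and are not the reads sequenced. In the paper's counts of mapped reads, a drone library had the most for H3K27ac, H3K27me3 and H3K4me3.

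Overlaps were computed in Python 3.11.15 with numpy 2.4.6 and pandas 2.3.3. A peak counted in a gene when it overlapped it by at least 1 bp, and base pairs were counted once per library. Log2 ratios were tested by exact sign flips over 6 libraries (64 patterns), with Benjamini-Hochberg adjustment. Single genes were fitted in R 4.3.3 with limma 3.58.1, checked on simulated data, with a pseudocount of 100 bp per 10 kb. The spread was shared by the castes, and with a library left out the lone sample is assumed to vary like the others. The study's own differential test needs reads and was not used. Alternatives were other length limits and comparison genes, a −log10 q of at least 5, equal peak numbers, peaks thinned to the lowest depth, other pseudocounts and filters, scaling, a replicate block and each library left out. Thinning redrew the summit pileup of each peak at the lowest estimated depth of the mark and kept peaks with a −log10 p of at least 4. Kept peaks retained their full width, so their covered bp was not itself brought to matched depth. Overlap between marks, peak width and fold, replicate support, merged regions and the mean over genes were added after seeing the data.

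Genes are named by these rules: the 10 longest, the 5 with the most cover of each mark, the 5 with the smallest p per contrast, those nearest the length limit, those without a peak, and, in place of lists by product name, which the gene table does not hold, all 27 with a symbol. LOC410925 and LOC100576498 were named for their widest region or gap after seeing the values. The long genes, lists and tests were chosen with earlier results of these data known. Coordinates count from 1.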

Additional observations from a re-analysis of the deposited data

How the results depend on the processing

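H3K27ac and H3K4me3 stayed lower in long than in shorter genes under every alternative run. The H3K27me3 cover ratio was −0.13 with a limit of 200 kb, −0.33 against genes of 20 to 100 kb, −0.54 against all other sequence, 0.016 with the stricter q (−log10 of 5 or more) and 0.047 with thinned peaks, the last 2 not past the threshold. Its peak ratio was −0.084 against genes of 20 to 100 kb and −0.31 against all other sequence. The H3K4me1 cover ratio was −0.077 with a limit of 50 kb and −0.071 against all other sequence, neither past the threshold, and 0.45 as a mean over genes. Its peak ratio was 0.012 and 0.011 under the first pair of these. The median over genes gave no ratio where the median shorter gene had no peak. With ends of 2 kb, interiors against ends of long genes gave −2.27 for H3K27ac and −4.72 for H3K4me3, −0.012 for H3K27me3 and 0.11 for H3K4me1, and ends against ends gave −0.10 for H3K27ac. The first 2 had an adjusted p of 0.0625 by the exact permutation test, though each was at the smallest p that 6 libraries allow before adjustment. H3K4me1 interiors against ends were past the threshold at −0.19 under the stricter q and at −0.13 without sequence shared with another gene, and ran from −0.073 to −0.020 with a library left out. H3K4me3 median peak width, which had not differed, changed sign to 0.00501, 0.0101 and 0.00126 without queen replicate 2, worker replicate 1 and worker replicate 2, and reached −0.137 without drone replicate 1. For drones minus the mean of queens and workers, the H3K27me3 cover ratio was −0.000965 with a limit of 200 kb, its peak ratio −0.017 with that limit and −0.0210 against genes of 20 to 100 kb, the H3K4me1 ratio 0.14 as a mean over genes, and the H3K4me3 peak ratio 0.082 with equal peaks. The cause of these shifts was not tested.

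Counts of long genes called moved as follows, in the order drones minus queens, drones minus workers and queens minus workers. H3K27ac, 15, 29 and 3 in the report, gave 9 in the first contrast with the stricter q, 4, 15 and 0 with cover in at least 1 library, 4, 16 and 0 with equal peaks and 28, 53 and 7 when scaled. H3K27me3, 39, 100 and 9, gave 20 and 4 in the first and last with cover in at least 1 library. H3K4me1, 111, 115 and 21, gave 69 and 33 in the last 2 under the stricter q, and in the last 11 with cover in at least 1 library, 0 with equal peaks, 33 and 11 with pseudocounts of 20 and 500, 1 when scaled and 2 when thinned. H3K4me3, 16, 3 and 0, gave 6 and 1 in the first 2 with cover in at least 1 library, 10 in the first with a pseudocount of 500 and 4 when thinned. It gave 7 and 2 in the last 2 under the stricter q, 18 and 9 with equal peaks, 9 and 1 with a pseudocount of 20, 14 in the second when scaled and 2 in the last when thinned. The fit with no filter could not be fitted. With a library left out, the ranges were 0 to 17, 0 to 61 and 0 to 2 for H3K27ac, 1 to 45, 21 to 94 and 0 to 9 for H3K27me3, 6 to 115, 14 to 96 and 0 to 18 for H3K4me1, and 0 to 31, 0 to 9 and 0 to 0 for H3K4me3, from fits with fewer samples. Of 146 named gene differences, 18 were called in all 6 such fits and 18 in none. With equal peaks, LOC100576247 in H3K4me1 (queens minus workers) turned to −0.080 and LOC410317 in H3K4me3 (drones minus queens) to 0.17.

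Replicate numbers are shared by the castes, but the deviations of same-numbered libraries correlated between −0.25 and 0.12 across genes, so the numbers were not taken to pair the samples. With a replicate block the counts were 0, 8 and 0 for H3K27ac, 4, 53 and 2 for H3K27me3, 58, 74 and 4 for H3K4me1, and 1, 0 and 0 for H3K4me3.

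Peak lists hold calls only, so weak marking below the threshold was not detectable, above all in the drone libraries if their lower estimated depth is right. With 2 libraries per caste, single-gene calls rest on few degrees of freedom, and spans without strand or exons do not separate promoters from gene ends or introns from exons.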
